A study of Mus musculus with 9 samples.

Results

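The 8 genes described here belong to the unfolded protein response and to the chaperone machinery of the endoplasmic reticulum (ER): Xbp1, Herpud1, Dnajb9, Hspa5, Hsp90b1, Sdf2l1, Pdia4 and Calr. They were chosen by name. Transcripts were summed to 35532 gene symbols, of which 13363 averaged 1 CPM (count per 1000000 counts) or more over the clones, and the 8 genes were all measured and all passed that minimum. The mRNA of 9 E14 clones was sequenced with 1 library each, E14 being a line of mouse embryonic stem cells. The clones were picked from the bulk line for differing lipid droplet size and were expanded on gelatin with foetal bovine serum and leukaemia inhibitory factor. The labels used here state no droplet size for any clone. No groups were formed, each clone (1, 4, 6, 8, 10, 11, 13, 14 and 17) stands as 1 sample, and no test between conditions was possible.

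The ER folds secreted and membrane proteins. When unfolded protein accumulates, the sensors Ire1, Perk and Atf6 in the ER membrane signal to the nucleus. Ire1 cuts a short stretch out of Xbp1 mRNA, and the shifted reading frame encodes an active transcription factor. Atf6 is cleaved by Golgi proteases into a factor that, together with NF-Y, binds ER stress response elements in front of chaperone genes. Perk slows translation and favours the factor Atf4. Hspa5 (BiP) binds the sensors and is itself a target of the response, so that chaperone mRNA levels are a widely used readout of ER load.

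Sequencing depth was similar between libraries, with 10783718 estimated counts in clone 1 and up to 14309662 in clone 6. Levels below are CPM scaled by effective library size. A range is the log2 CPM of the highest clone less that of the lowest, and intervals are exact 95% intervals that cover counting error and no spread between cultures. The pluripotency genes were high throughout. Pou5f1 was highest in clone 17 (1294 CPM), Sox2 in clone 14 (301 CPM) and Nanog in clone 1 (528 CPM). All 3 were lowest in clone 11, at 842, 234 and 246 CPM. Markers of other cell types were uneven, and clones 10 and 11 stood apart in summed levels. Of 9 fibroblast markers 6 passed the minimum, with Lum, Dcn and Postn below it. All 9 summed to 96.3 and 121 CPM in clones 10 and 11 and to at most 29.2 CPM in any other clone. Of 6 trophoblast markers 5 passed, with Elf5 below. All 6 summed to 491 and 521 CPM in clones 10 and 11 and to at most 158 CPM elsewhere. Krt8 alone reached 277 CPM in clone 10, and Krt18 180 CPM in clone 11. The 5 were also set against each gene's own median over clones. Their median deviation was then 1.32 log2 units in clone 4, 1.35 in clone 10 and 2.17 in clone 11. Primitive streak markers summed to 31.4 and 56.7 CPM in clones 10 and 11 and to at most 15.4 CPM elsewhere. Formative and primed markers summed to 601 and 690 CPM there and to at most 520 CPM elsewhere. The 8 pluripotency markers summed to 3475 and 3177 CPM there and to 4471 CPM or more elsewhere. In bulk RNA, fewer cells of a type and less RNA per cell cannot be told apart.

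The sequence that Ire1 removes from Xbp1 mRNA was located in the reference transcript to see which form the deposited values measure. A stretch of 26 bases between a pair of C-N-G cutting sites, where N is any base, was searched in Xbp1-201 and gave 1 match. It sits in exon 4, at chr11:5524279-5524304 on the plus strand of GRCm38. It is shown because its removal is the event that activates Xbp1. Capitals mark the removed bases, with the flanking bases of the cutting sites in lower case.
Xbp1: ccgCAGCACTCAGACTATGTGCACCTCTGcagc
This stretch was present in 3 of the 4 annotated Xbp1 transcripts and was joined out in 0 of them. With no annotated form that lacks it alone, the Xbp1 levels below do not tell processed from unprocessed mRNA.

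The promoters were read for the elements through which the response acts. The ER stress response element was searched as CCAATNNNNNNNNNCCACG and its second form, ERSE-II, as ATTGG and CCACG with 1 free base between them, on both strands, in windows from 250 bases before to 50 bases after each RefSeq start (GRCm38.p6). The letters of the first form were present in 39 of 32851 windows (0.119%) and those of ERSE-II in 12 (0.0365%). Among the 8 genes, which had 1 window each, Hspa5, Hsp90b1 and Calr held the first form, with 2 copies in Hsp90b1, and Herpud1 held ERSE-II. The shorter element TGACGTGG was present in 0.676% of windows and in 0 of the 8. Only exact matches were taken, so elements that differ in any fixed letter were not counted. The windows of the 4 genes with an element are shown for their 250 bases before the start, 5′ to 3′ on the gene's strand, with the elements in capitals. They lie at chr2:34771840-34772089, plus strand, at chr10:86705445-86705694, minus strand, at chr8:84846932-84847181, minus strand and at chr8:94386179-94386428, plus strand.
Hspa5: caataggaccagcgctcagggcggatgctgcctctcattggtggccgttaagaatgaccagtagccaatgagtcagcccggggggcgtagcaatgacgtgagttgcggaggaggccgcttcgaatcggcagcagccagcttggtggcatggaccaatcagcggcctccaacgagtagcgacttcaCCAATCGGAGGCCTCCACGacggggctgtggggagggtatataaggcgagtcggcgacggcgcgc
Hsp90b1: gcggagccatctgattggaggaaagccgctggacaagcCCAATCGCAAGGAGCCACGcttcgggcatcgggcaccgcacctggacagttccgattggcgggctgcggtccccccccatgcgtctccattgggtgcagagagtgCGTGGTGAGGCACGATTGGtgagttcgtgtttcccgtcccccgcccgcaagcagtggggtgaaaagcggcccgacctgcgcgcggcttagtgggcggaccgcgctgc
Calr: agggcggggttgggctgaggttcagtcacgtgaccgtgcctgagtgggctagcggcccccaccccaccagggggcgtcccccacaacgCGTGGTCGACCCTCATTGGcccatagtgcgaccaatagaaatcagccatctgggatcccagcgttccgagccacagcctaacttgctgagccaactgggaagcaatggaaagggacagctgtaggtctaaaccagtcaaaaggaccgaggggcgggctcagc
Herpud1: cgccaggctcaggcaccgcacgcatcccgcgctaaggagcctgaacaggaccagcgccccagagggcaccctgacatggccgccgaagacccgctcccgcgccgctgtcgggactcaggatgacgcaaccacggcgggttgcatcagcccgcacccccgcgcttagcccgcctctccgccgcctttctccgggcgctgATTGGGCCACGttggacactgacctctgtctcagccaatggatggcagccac
Counted from the start, the first base of the element was at -65 in Hspa5, -52 in Herpud1, -162 in Calr, and -212 and -107 in Hsp90b1. CCAAT and CCACG overlap these elements and are common on their own, in 37.4% and 32.8% of windows. A match of letters is a description and shows neither binding nor use. The 8 genes were chosen by name as genes of this response, so the shares of all windows beside them are no test of enrichment.

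Across the 9 clones the 8 genes differed in which clones were high and low. The median of their ranges was 0.80, beside 0.79 over the 13363 genes. Xbp1, Herpud1 and Dnajb9, 3 of the 8, had a range of 1 log2 unit or more, against 35.2% of all genes, so that their share lies near that of all genes. The 8 average 11.8 CPM or more, while all genes start at a mean of 1 CPM, where counting error widens ranges. The shares of all genes, here and beside the lists below, are not matched for level. At 0.5 log2 units or more the count was 6 of 8, against 77.2% of all genes, and at 2 or more 0 of 8, against 7.92%. The major chaperones Hspa5 and Hsp90b1 were among the steadiest genes of the table, with 2.75% and 6.95% of genes at a smaller range, while 91.4% had a smaller range than the regulator Xbp1. In 1 of the 8, Dnajb9, the gap between a single clone and the next one reached 0.5 log2 units, as it did in 8.91% of all genes.

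**Figure D1:**
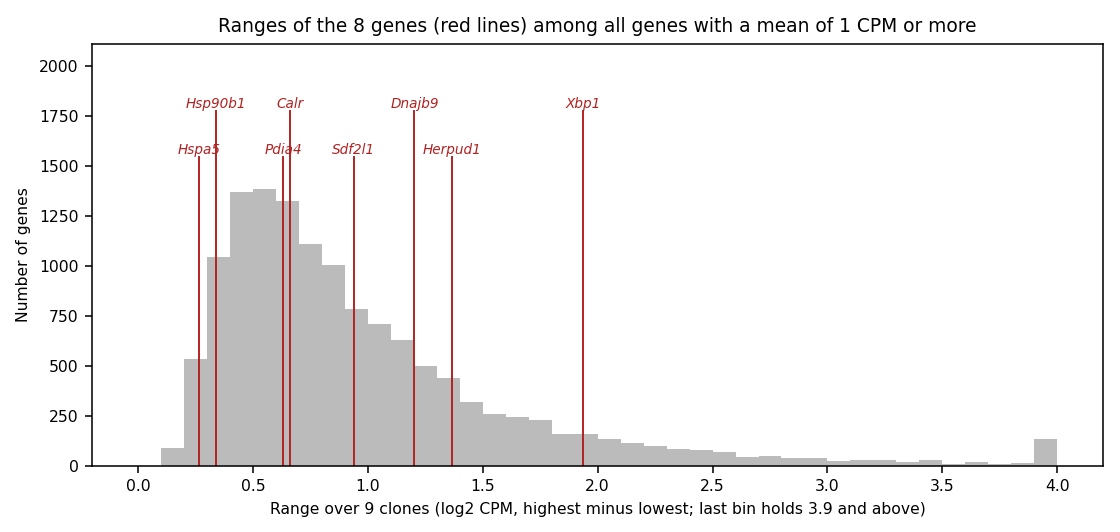
The grey bars count genes by the range of log2 CPM over 9 clones, and red lines mark the 8 described genes. Hspa5 at 0.27 and Hsp90b1 at 0.34 lie at the narrow end, and Xbp1 at 1.94 lies in the wide tail.

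Per transcript length, the chaperones Calr, Hspa5 and Hsp90b1 and the isomerase Pdia4 were the most abundant of the 8. In TPM, transcripts per 1000000 after correction for length, averaged over clones, Calr stood at 721, Hspa5 at 510, Hsp90b1 at 429 and Pdia4 at 178. Xbp1 followed at 60.4 TPM, Sdf2l1 at 33.8 TPM, Herpud1 at 11.1 TPM and Dnajb9 at 8.77 TPM. The order of the upper 3 depends on short transcripts. When the most counted transcript of each gene was taken alone, Hspa5-202 averaged 404 TPM, Hsp90b1-201 392 TPM and Calr-201 381 TPM, and the ranges of these 3 over clones overlapped. Calr-204, annotated as a retained-intron transcript, held between 20.6% of the Calr counts in clone 11 (interval 19.7 to 21.4%) and 30.4% in clone 4 (29.4 to 31.4%). kallisto divides reads between overlapping transcripts, so that these shares carry an error that the intervals leave out. The 8 genes summed to between 1853 TPM in clone 11 and 2020 TPM in clone 17.

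Xbp1 (chromosome 11, 5520659 to 5525893, GRCm38), the transcription factor activated by Ire1, varied most. It was at 133, 101, 109, 41.0, 67.2, 100.4, 116, 39.2 and 34.7 CPM in clones 1, 4, 6, 8, 10, 11, 13, 14 and 17. Clones 8, 14 and 17 were low, clone 10 was intermediate, and the other 5 were high with no overlap. The level in clone 1 was 3.84 times that in clone 17 (interval 3.46 to 4.27). Clones 8 and 14 could not be separated by counting error, nor could clones 14 and 17, but clone 10 exceeded clone 8 by 1.64-fold (interval 1.48 to 1.82) and clone 11 exceeded clone 10 by 1.49-fold (1.37 to 1.62). The main transcript Xbp1-201 held 93.2 to 95.9% of the gene's counts in each clone.

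Genes on the chromosome of Xbp1 were, by their median, also lower in the same clones. Over 1071 genes of chromosome 11, the median deviation from each gene's own median over clones was -0.40, -0.36 and -0.38 log2 units in clones 8, 14 and 17. In the other 6 clones it lay between 0.12 and 0.01. Xbp1 itself deviated by -1.29, -1.35 and -1.53 in clones 8, 14 and 17, and by -0.58 in clone 10, where the chromosome median was 0.01. After the chromosome median of each clone was subtracted, the range of Xbp1 was 1.46 in place of 1.94. The part of the chromosome-wide difference in the level of Xbp1 was not tested.

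Herpud1 (chromosome 8, 94386438 to 94395377), a membrane protein of ER-associated degradation, was highest in clones 8 and 17, which were low in Xbp1, but not in clone 14, which was low in Xbp1 as well. Its levels were 11.9, 8.05, 9.89, 20.8, 15.0, 8.50, 10.1, 13.7 and 21.0 CPM in clones 1, 4, 6, 8, 10, 11, 13, 14 and 17. Clones 8 and 17 stood above the rest, with 1.39 times as much in clone 8 as in clone 10, the next in order (interval 1.16 to 1.67). From clone 10 downwards no neighbouring clones differed beyond counting error, although the extremes did, with clone 17 at 2.61 times clone 4 (interval 2.08 to 3.29). These levels rest on 106 to 291 counts. Herpud1 overlaps the antisense gene Gm15890, whose transcripts are not analysed here.

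Calr (chromosome 8, 84841850 to 84846934) encodes calreticulin, the lectin chaperone that holds glycoproteins in the ER and binds calcium. It was at 721, 639, 737, 860.4, 858, 600.2, 670.2, 908 and 949 CPM in clones 1, 4, 6, 8, 10, 11, 13, 14 and 17. The highest 4, clones 17, 14, 8 and 10, lay above the other 5 without overlap, and clone 17 was at 1.58 times clone 11 (interval 1.54 to 1.62). At 7514 counts or more in each clone, 6 of its 8 neighbouring pairs differed beyond counting error.

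The median of the 713 measured genes of chromosome 8 was higher in the same 4 clones. It lay at 0.28, 0.26, 0.32 and 0.31 log2 units in clones 8, 10, 14 and 17, at 0.00 in clone 6, and between -0.19 and -0.21 in clones 1, 4, 11 and 13. Calr stayed within 0.17 log2 units of that median in each clone, and its range was 0.26 after subtraction in place of 0.66. For Herpud1 the range was 0.88 in place of 1.37, with 0.52 and 0.50 log2 units left in clones 8 and 17. Its part in the levels of Calr and Herpud1 was likewise not tested.

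**Figure D2:**
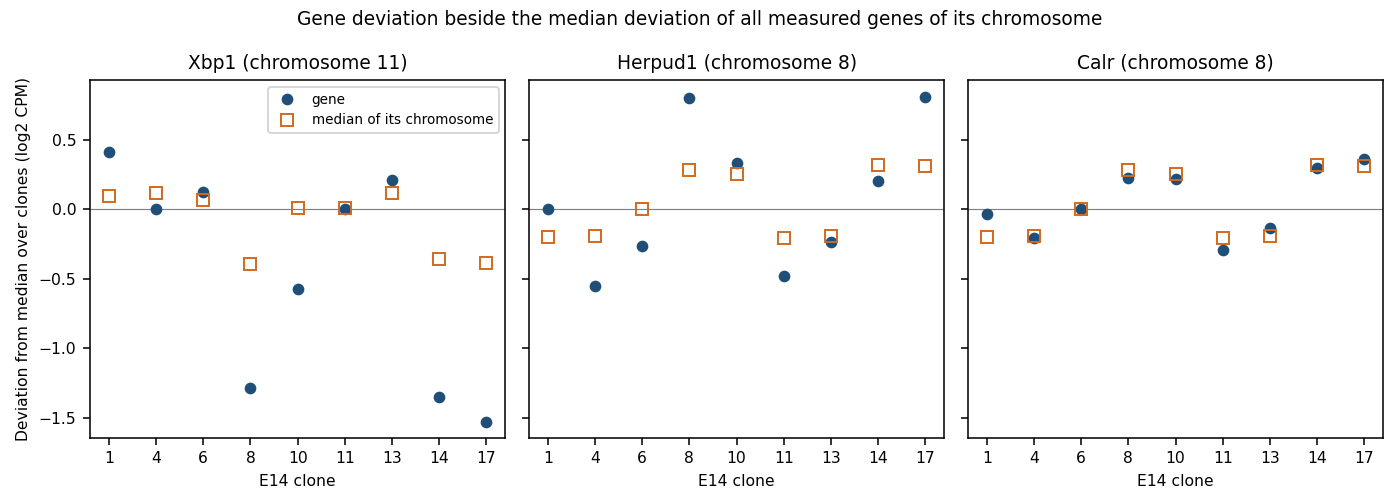
Filled circles give the deviation of Xbp1, Herpud1 and Calr from their own median over clones, in log2 CPM, and open squares the median deviation of measured genes of the same chromosome. Calr lies near its squares, while Xbp1 lies at -1.29 to -1.53 in clones 8, 14 and 17, below chromosome medians of -0.36 to -0.40.

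Dnajb9 (chromosome 12, 44205559 to 44210326) encodes ERdj4, a J-domain cochaperone of Hspa5 that helps to keep Ire1 inactive. It was at 11.9, 6.23, 12.9, 14.5, 12.6, 12.6, 9.57, 12.6 and 13.5 CPM in clones 1, 4, 6, 8, 10, 11, 13, 14 and 17. Clone 4 stood alone at the bottom, with 1.54 times as much in clone 13, the next above it (interval 1.15 to 2.06). The other 8 clones followed each other without a step beyond counting error, and clone 8 was at 2.33 times clone 4 (interval 1.797 to 3.05). Counts were few, 82 in clone 4 and at most 203 in clone 8. Without clone 4 the range was 0.60 in place of 1.20. Xbp1, a known activator of Dnajb9, was near its own median in clone 4, at 0.00 log2 units from it. That level does not tell processed from unprocessed Xbp1 mRNA, and the part of Xbp1 in the level of Dnajb9 was not tested.

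**Figure D3:**
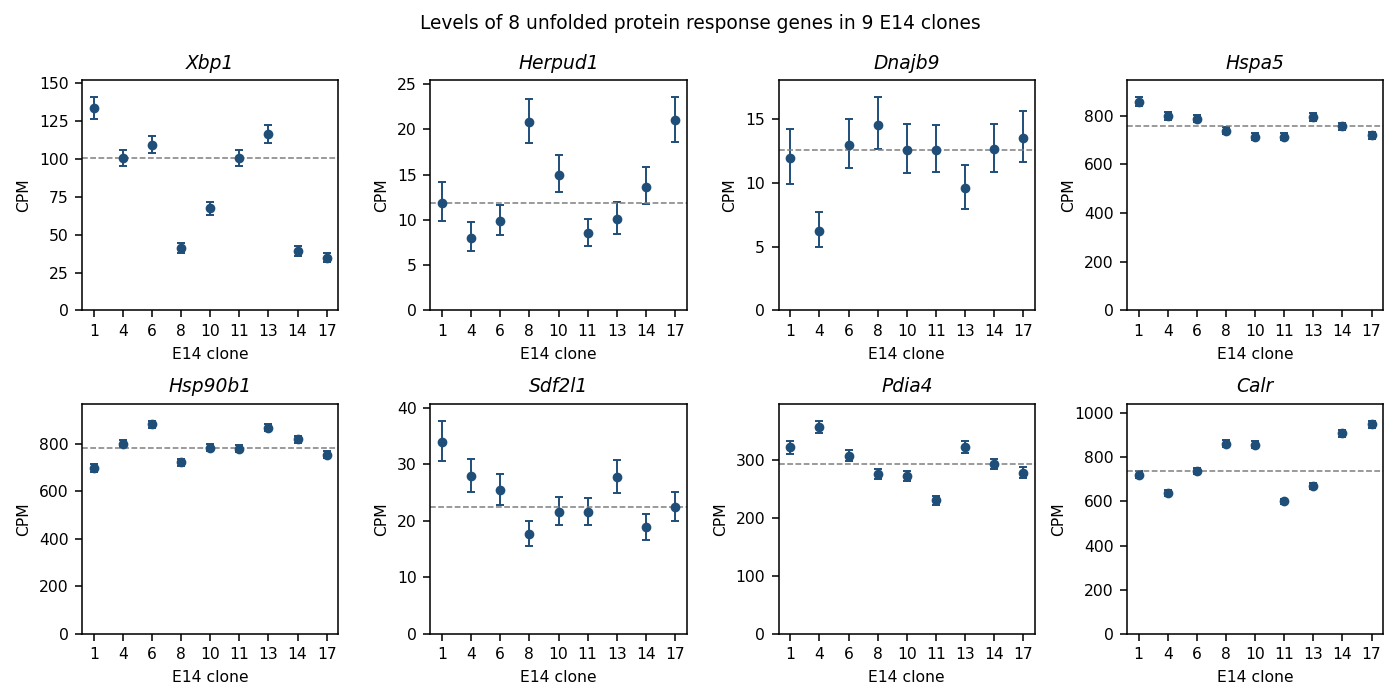
Each panel gives CPM of 1 gene in 9 clones, with bars for the exact 95% counting interval and a dashed line at the median over clones, on an axis from 0. Xbp1 is low in clones 8, 14 and 17, Herpud1 high in clones 8 and 17 and Dnajb9 low in clone 4, while Hspa5 stays between 858 and 714 CPM.

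Hspa5 (chromosome 2, 34771970 to 34777547), the Hsp70 of the ER lumen known as BiP, had the narrowest range of the 8. It was at 858, 799, 788, 739, 714.6, 713.6, 795, 757 and 719 CPM in clones 1, 4, 6, 8, 10, 11, 13, 14 and 17. Clone 1 was at 1.20 times clone 11 (interval 1.17 to 1.24), and 6 of the 8 neighbouring pairs did not differ beyond counting error. Without clone 1 the range was 0.16 in place of 0.27. With TPM the fold between the highest and the lowest clone was 1.11.

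Hsp90b1 (chromosome 10, 86690209 to 86705509), the ER Hsp90 known as Grp94, was nearly as steady but in another order. It was at 699, 802, 883, 723, 784, 780.3, 869, 819 and 756 CPM in clones 1, 4, 6, 8, 10, 11, 13, 14 and 17. The clone highest in Hspa5, clone 1, was lowest in Hsp90b1. Clone 6 was at 1.26 times clone 1 (interval 1.23 to 1.30), and with TPM clone 13 was highest and the fold was 1.41. Part of Hsp90b1 overlaps the pseudogene 1810014B01Rik on the other strand, which reached at most 4.04 CPM.

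Pdia4 (chromosome 6, 47796141 to 47813430), the disulfide isomerase ERp72, was at 322, 358, 308, 275, 273, 231, 323, 293 and 279 CPM in clones 1, 4, 6, 8, 10, 11, 13, 14 and 17. Clone 4 was highest and clone 11 lowest, a fold of 1.55 (interval 1.48 to 1.62). Without clone 11 the range was 0.39 in place of 0.63. The step down to clone 11 from clone 10 was 1.18-fold (interval 1.13 to 1.24). In CPM clone 11 is also lowest for Calr and, not separated from clone 10 by counting error, for Hspa5, and 0 of the 8 genes lay above their own median there. By TPM this does not hold, since Xbp1 (81.3 against a median of 71.0 TPM), Dnajb9 (9.52 against 8.86 TPM) and Hsp90b1 (457 against 434 TPM) lay above their medians in clone 11, and Hspa5 was lowest in clone 14. Clone 11 is one of the pair with the highest summed levels of fibroblast, trophoblast, primitive streak and formative markers. The same pair had the lowest summed pluripotency markers. The part of these differences in the levels of the 8 genes was not tested.

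Sdf2l1 (chromosome 16, 17130138 to 17132383), which works with the cochaperone Dnajb11 and Hspa5, was at 34.0, 27.9, 25.4, 17.7, 21.6, 21.5, 27.7, 18.8 and 22.5 CPM in clones 1, 4, 6, 8, 10, 11, 13, 14 and 17. Clone 1 stood above clone 4 by 1.22-fold (interval 1.05 to 1.41), and no other neighbouring pair differed beyond counting error. Clone 1 was at 1.92 times clone 8 (interval 1.63 to 2.27). Of the 8 genes Sdf2l1 came nearest to Xbp1 in its pattern, with a root mean square difference of 0.52 log2 units over the 9 clones. Herpud1 lay farthest from Xbp1, at 1.14, and Hspa5 and Pdia4 were the closest pair, at 0.12. These distances depend on how far a gene varies as well as on its order of clones. From a gene with no variation Hspa5 lay at 0.086 and Xbp1 at 0.72, so a small distance between steady genes shows no shared pattern.

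**Figure D4:**
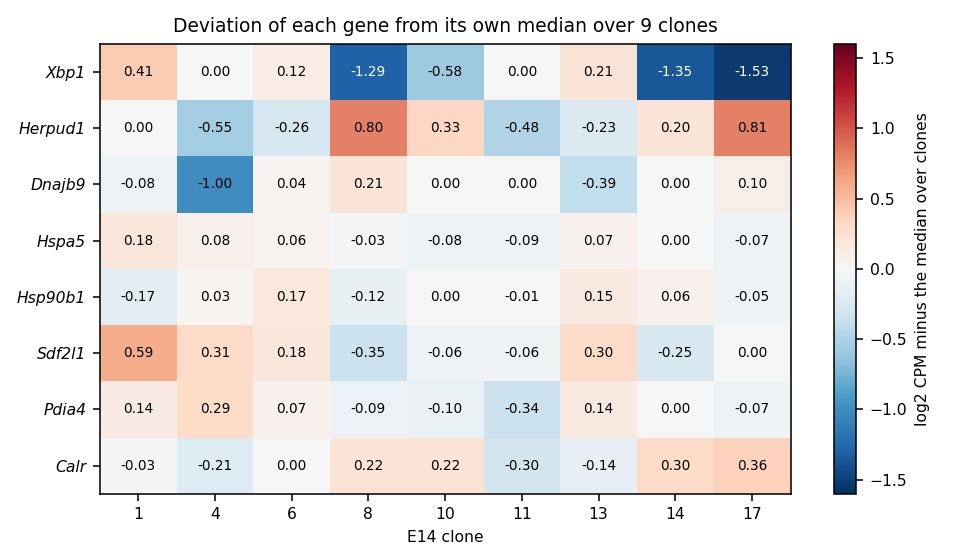
Each cell gives the log2 CPM of 1 gene in 1 clone minus that gene's median over the 9 clones, from blue (lower) to red (higher). Clones 8 and 17 hold low values of Xbp1, at -1.29 and -1.53, and the highest of Herpud1, at 0.80 and 0.81.

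Counted by clone in CPM, 6 of the 8 genes lay above and 1 below their own median in clone 6, and 0 above and 6 below in clone 11. The clone 11 count does not hold by TPM, as given above. Shares of all genes above and below were not counted, so these counts have no background to be read against. The median deviation over all genes was 0 in both clones, which does not give those shares. In clone 17 Herpud1 and Calr reached their highest level and Xbp1 its lowest. In clone 1 Xbp1, Hspa5 and Sdf2l1 were highest and Hsp90b1 lowest. The median deviation over the 8 genes stayed between 0.10 in clone 13 and -0.07 in clone 11.

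Genes with a like pattern were sought among 8763 protein-coding genes averaging at least 10 CPM, by the smallest root mean square difference of mean-centred log2 CPM over the 9 clones. Nearest to Xbp1 were Radil on chromosome 5, at 0.15, and Slc46a1 on chromosome 11, at 0.17. Those nearest to Herpud1, Vps35 and Xkr5 (both 0.16), and those nearest to Calr, Lsm1 (0.048) and Timm44 (0.050), all lie on chromosome 8. Dnajb9 was nearest to Zfp322a (0.13) and Dusp11 (0.14), which were also lowest in clone 4.

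For the other 4 genes the distances were 0.078 or less. Hspa5 was nearest to Entpd4 (0.034) and Rpp14 (0.035), Hsp90b1 to Atf7ip (0.045) and Ubfd1 (0.052), Pdia4 to Mcm6 and Rpl36 (both 0.055), and Sdf2l1 to Timm17b (0.062) and Lamtor4 (0.078). The mean profile of the 8 genes, with a range of 0.29, lay nearest to Lta4h (0.030), Spg21 (0.050), Hadhb (0.050), Haspin (0.054), Mlec (0.056), Derl1 (0.057), Ippk (0.057), Pdcd10 (0.058), Cwc15 (0.058) and Tmed2 (0.058). That profile is nearly flat, at 0.089 from a gene with no variation, so that steady genes of any kind lie close to it. The same limit holds for Hspa5, at 0.086 from such a gene, and Hsp90b1, at 0.105.

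Upstream of the members, the sensors and their proteases differed little. A range of 1 or more was seen in 1 of 7, against 35.2% of all genes, with a list median of 0.61 against 0.79 over all genes. Mbtps1, the Golgi protease that first cuts Atf6, was at 367 CPM in clone 14, against 178 CPM in clone 1 (2.07-fold, interval 1.96 to 2.18). It lies on chromosome 8. Ern1, which encodes Ire1 and lies on chromosome 11, was at 16.5 CPM in clone 10, against 9.24 CPM in clone 17 (1.79-fold, interval 1.44 to 2.24). In the Creb3 family, ER-anchored relatives of Atf6, 4 of 5 passed the minimum and 3 of those had a range of 1 or more (median 1.27), beside the same 35.2%. Both of widest range were scarce, Creb3l1 reaching 6.29 CPM (in clone 11) and Creb3l2 7.87 CPM (in clone 1).

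The wider folding machinery was read from lists chosen by name, with earlier results of these data known. Of 14 other ER chaperones and cochaperones 1 had a range of 1 or more (median 0.60), of 12 disulfide isomerases and oxidases 1 (0.59), and of 6 peptidyl-prolyl isomerases 3 (0.96). Among 16 genes of ER-associated degradation the count was 4 (median 0.64), among 22 of the translocon and signal peptidase 1 (0.41), and among 10 of the oligosaccharyltransferase 0 (0.50). Counts in the last 3 stayed at or below the 35.2% of all genes. Dnajc3, the cochaperone that restrains Perk, was at 92.4 CPM in clone 13, against 35.1 CPM in clone 17 (2.63-fold, interval 2.37 to 2.93). Fkbp11, a prolyl isomerase of secretory cells, was at 25.8 CPM in clone 1, against 7.37 CPM in clone 17 (3.51-fold, interval 2.78 to 4.45). Fkbp10, a collagen chaperone, had its highest level in clone 10, at 50.05 CPM, and its lowest in clone 13, at 16.3 CPM.

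Sil1, the nucleotide exchange factor of Hspa5, was at 10.5 CPM in clone 1, against 5.44 CPM in clone 8. Pdia5 was at 22.9 CPM in clone 4, against 9.50 CPM in clone 1, and P4hb, the main disulfide isomerase, at 1124 CPM in clone 4, against 586 CPM in clone 8. Among degradation genes Derl3 was at 6.99 CPM in clone 6, against 2.84 CPM in clone 14. Sec61g, a translocon subunit, was at 21.1 CPM in clone 11, against 9.25 CPM in clone 8, and Sec11c, of the signal peptidase, at 14.7 CPM in clone 13, against 7.29 CPM in clone 10. Rpn1 and Ostc of the oligosaccharyltransferase were at 331 CPM in clone 4, against 192 CPM in clone 8, and at 93.5 CPM in clone 1, against 58.8 CPM in clone 14.

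Some of these ER genes shared their lowest clones with Xbp1. The count was chosen after the values of Xbp1 had been seen, and the lists with earlier results of these data known. The shares below are therefore a description and no test. Of the 80 genes past the minimum in the 6 ER lists from chaperones to oligosaccharyltransferase, 27 (33.8%) had clones 8, 14 and 17 as their 3 lowest, against 13.6% of all genes, and 2 had them as their 3 highest, again against 13.6%. Leaving out chromosomes 8 and 11, whose medians moved with these clones, the share was 23 of 69 (33.3%), against 10.0% of genes on the other chromosomes. With all chromosomes kept, the share among the 6 lists was greatest for the ER chaperones, at 8 of 14: Hyou1, Dnajc3, Dnajb11, Sil1, Manf, Creld2, Canx and Sdf2. P4hb, Pdia6, Txndc5 and Prdx4 did the same among the oxidative folding genes, and Sel1l, Derl2, Derl3, Edem1 and Selenos among the degradation genes. Outside the 6 lists the count was 1 of 7 for the sensors and their proteases and 2 of 4 for the Creb3 family. It was 1 of 16 for the COPII and KDEL receptor genes described below. Of the 8 described genes Xbp1 alone had these lowest clones, 1 of 8 against 13.6% of all genes. Canx, the membrane partner of calreticulin in glycoprotein folding, was at 1395, 1474, 1496, 974, 1387, 1376, 1581, 936 and 905 CPM in clones 1, 4, 6, 8, 10, 11, 13, 14 and 17. Canx lies on chromosome 11, as do Sdf2, P4hb and Derl2. Of all genes of that chromosome 59.9% had these clones as their 3 lowest. Calr had clones 8, 14 and 17 as its 3 highest, as did 37.2% of genes on its chromosome 8. For Hspa5 and Hsp90b1 these clones were neither. The part of the chromosomes in these levels was not tested. Markers of other cell types were mixed in this respect. The 3 lowest clones were 8, 14 and 17 for 4 of 6 fibroblast markers and 3 of 4 primitive streak markers. They were so for 2 of 6 formative, 1 of 9 primitive endoderm and 0 of 5 trophoblast markers, again beside 13.6% of all genes. All measured fibroblast and streak markers, those below the minimum included, summed to at most 12.2 and 7.29 CPM in these clones. The part of such cells in the ER gene levels was not tested.

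Genes of the Perk and Atf4 branch had other high clones. Of 11 that passed the minimum, 5 had a range of 1 or more, against 35.2% of all genes, and 3 of 2 or more, against 7.92% (median 0.94). The levels of Atf4, the factor that names the branch, were 124, 85.2, 94.9, 186, 84.3, 98.1, 97.2, 109 and 202 CPM in clones 1, 4, 6, 8, 10, 11, 13, 14 and 17. Clones 8 and 17, the pair with the highest Herpud1, were also the pair with the highest Atf4. Nupr1 was at 4.33 CPM in clone 17, against 0.192 CPM from 2 counts in clone 1 (22.6-fold, interval 5.98 to 191), and Atf3 at 6.50 CPM in clone 11, against 0.380 CPM in clone 4 (17.1-fold, interval 7.07 to 53.9). Clones 8, 14 and 17 were the 3 lowest for 0 of the 11 and the 3 highest for 2 of the 11. Each count stands beside 13.6% of all genes, and 11 genes are few for such a share.

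Downstream traffic and the chaperones of other compartments gave a background for the ER. Of 16 genes of COPII vesicles and KDEL receptors, which return escaped ER chaperones, 5 had a range of 1 or more (median 0.44), led by Kdelr3, with 6.66 CPM in clone 8, against 2.13 CPM in clone 4, and Sec13, with 271 CPM in clone 1, against 106 CPM in clone 14. Cytosolic heat shock genes had a range of 1 or more in 5 of 12 (median 0.75). Both counts lie near the 35.2% of all genes. Hspb1 was at 785 CPM in clone 17, against 265 CPM in clone 11, and Hsph1 at 306 CPM in clone 14, against 104 CPM in clone 1. Mitochondrial chaperones varied little, with 0 of 7 at a range of 1 or more (median 0.39, close to the 0.41 of the translocon list). Their widest ranges were those of Hspa9, at 1355 CPM in clone 17, against 905 CPM in clone 1, and Lonp1, at 338 CPM in clone 4, against 226 CPM in clone 11.

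**Figure D5:**
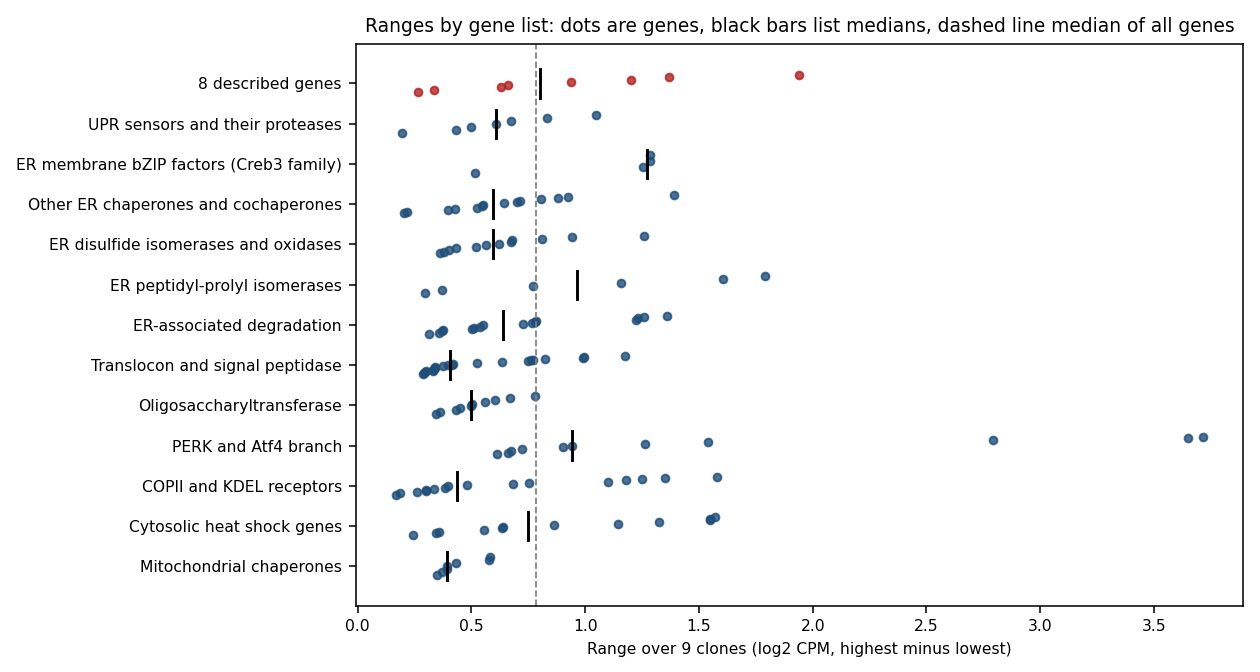
Each dot is the range of log2 CPM over 9 clones of 1 gene past the minimum, black bars are list medians, and the dashed line is the median of all genes, 0.79. The 8 described genes, in red, spread from 0.27 to 1.94, and the mitochondrial and translocon lists lie mostly at narrow ranges.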

How the data were processed

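RNA-seq of 9 E14 clones was analysed, 1 library each. The library kit kept strand and selected mRNA, per the labels' protocols. The submitters' processing notes name kallisto 0.43.1, Trimmomatic 0.33, CASAVA 1.8 and FastQC, and as builds GRCm38 and mm10. Their annotation release was not given in these sources. For each of 115270 transcripts the authors deposited estimated counts and TPM beside its lengths, per the file headers. TPM values are scaled by effective length and library by the authors' tool, and estimated counts are not scaled.

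Of these, 113580 (98.5%) had an identifier present in GENCODE M21 (GRCm38) and were summed per gene symbol. Unmatched transcripts held 0.641 to 0.773% of the counts. Levels are CPM and log2 CPM with TMM factors (edgeR 4.0.16, R 4.3.3) and a prior count of 2. At a count of 0 the limit, taken as 3 counts, was 0.21 to 0.278 CPM, depending on the clone. Genes averaging at least 1 CPM were described. Folds carry Clopper-Pearson 95% intervals of 2 counts, rounded to whole numbers. No group test was run. Promoters are RefSeq windows (GRCm38.p6), and all 8 genes matched.

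The members and lists were chosen with earlier results of these data known. Named genes were the 8 members, the 2 of widest range per list, list members with 1 clone apart by 1 or more log2 units, the 10 nearest to the mean profile, the 2 nearest to each member, Pou5f1, Sox2 and Nanog. Genes named for sharing the lowest clones of Xbp1, and Atf4, were chosen after their values were seen. A gene that the rule names is not reported here. Of the marker lists, primitive endoderm, primitive streak and formative genes were also measured, with median ranges of 1.97, 3.58 and 1.60. Their widest ranges were those of Col4a2 (2.36), Sox7 (2.22), T (5.77), Wnt3 (3.69), Pou3f1 (3.35) and Sall2 (2.39), and in the pluripotency, fibroblast and trophoblast lists those of Tfcp2l1 (1.26), Nanog (1.10), Col1a1 (5.71), Col1a2 (5.33), Krt18 (4.76) and Krt8 (3.94). Each clone is 1 library, and the labels name no separate cultures of a clone. The range and interval steps were tested on simulated data. Alternatives were DESeq2 1.42.0 size factors, a prior count of 0.5, log2(TPM + 1), no filter or 5 CPM and each clone left out. Subtracting chromosome medians and counting protein-coding transcripts alone were added after the data were seen. Python 3.11.15, numpy 2.4.6, pandas 2.3.3, scipy 1.17.1 and matplotlib 3.10.9 were used.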

Additional observations from a re-analysis of the deposited data

Results flagged for a closer look

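Of 72 named genes, 6 had 1 clone far from the other 8, by the gap to the nearest clone as a share of the whole range, against a limit of 0.493 for 9 samples. Chance alone flags about 1 in 20 genes. Among the 8 described genes this was Dnajb9, lowest in clone 4, with a share of 0.505. Zfp322a and Dusp11, picked for their likeness to Dnajb9, were also lowest in clone 4, with shares of 0.572 and 0.498. Lonp1 was highest in clone 4, at 0.523, and Derl1 and Tmed2 were highest in clone 1, at 0.557 and 0.589.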

How the results depend on the processing

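No paired analysis was possible because the labels put no clone in a group. DESeq2 size factors and a prior count of 0.5 moved none of the values compared beyond their counting interval. With log2(TPM + 1) the range was 0.54 for Calr, 0.82 for Dnajb9, 0.49 for Hsp90b1, 0.15 for Hspa5 and 0.40 for Pdia4, the median deviation of the 8 genes in clone 11 was 0, and 2 of the 8 genes (Xbp1 and Herpud1) had a range of 1 or more. List medians with TPM were 1.31 for the Perk and Atf4 branch, 1.72 for fibroblast, 0.75 for pluripotency, 2.33 for primitive streak and 1.95 for trophoblast markers. The genes with a range of at least 1 numbered 2420 under a 5 CPM minimum and 11585 without one, in place of 4708, and the fibroblast median was 2.37 with no minimum. Here the number of genes tested differs by construction. After subtraction of chromosome medians the range was 0.26 for Calr, 0.88 for Herpud1 and 1.46 for Xbp1. On protein-coding transcripts alone it was 0.70 for Calr, and by TPM Xbp1-201 held 89.0% of its gene. Leaving out each clone in turn gave ranges of 0.57 to 0.66 for Calr, 0.60 to 1.20 for Dnajb9, 0.29 to 0.34 for Hsp90b1, 0.16 to 0.27 for Hspa5, 0.39 to 0.63 for Pdia4, 0.66 to 0.94 for Sdf2l1 and 1.74 to 1.94 for Xbp1. The median range of the 8 genes was then 0.63 to 0.80 and that of pluripotency markers 0.66 to 0.85. Without clone 4 Dnajb9 stood at 0.60, without clone 1 Hspa5 stood at 0.16, and without clone 11 Pdia4 stood at 0.39. The cause of these changes was not tested beyond the construction of each alternative. Counting error limits Dnajb9 and Herpud1 most, at 82 to 203 and 106 to 291 counts.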
